A study of Mus musculus with 26 samples.

Results

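The 10 genes described here encode heterogeneous nuclear ribonucleoproteins (hnRNPs), namely Hnrnpa1, Hnrnpa2b1, Hnrnpc, Hnrnpd, Hnrnpf, Hnrnph1, Hnrnpk, Hnrnpl, Hnrnpm and Hnrnpu. Peaks of RNA 5-hydroxymethylcytosine (5hmC) were assigned to a gene when the peak summit, the midpoint of the listed interval, lay within the span of that gene in the GENCODE M1 annotation of the mouse genome build mm9. The 10 genes held 340 of the 56538 peaks of the series. Merging of overlapping intervals over all libraries gave 68 hnRNP regions out of 23367 regions, of which 18820 lay in coding genes.

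hnRNPs bind nascent pre-mRNA and take part in splicing, 3' end formation, export, stability and translation of transcripts. Most carry RNA recognition motifs or KH domains. Several of them regulate the splicing of their own transcripts through alternative exons or retained introns, which lowers their own output. 5hmC in RNA can arise when Tet enzymes oxidize 5-methylcytosine. According to the study, Tet enzymes account for only part of this mark in mRNA.

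The peaks come from hMeRIP-Seq, in which total RNA sheared to short fragments is immunoprecipitated (IP) with an anti-5hmC antibody and sequenced beside its input. WT ESC are wild-type mouse embryonic stem cells, TKO ESC lack Tet1, Tet2 and Tet3 through a triple knockout, and WT EB are embryoid bodies kept for 4 days without leukaemia inhibitory factor, with 3 IP libraries each. Tet2-KI ESC are wild-type stem cells with a Flag, HA and Twin-Strep tag at the C-terminus of endogenous Tet2, and in Tet2deltaRBD-KI ESC this protein has lost the domain that binds RNA, with 2 IP libraries each. The knock-in lines were grown from picked clones. The study describes its hMeRIP-Seq replicates as independent experiments.

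A list of peaks says where an IP passed the threshold of the peak caller over its input, and a region without a peak was not shown to lack 5hmC. How deeply each library was sequenced was not measured here. The lists held 498 to 10383 peaks, with WT EB replicate 1 and TKO ESC replicate 1 the shortest. Replicate 1 of WT ESC and TKO ESC belongs to the batch prefixed 1608 and that of WT EB to 1610, against 1703 for replicates 2 and 3. Fold enrichment is the ratio of IP over input at the summit. It was listed for all groups but the knock-in lines, whose lists hold positions only. Where a library had several peaks in a region, the highest was taken. Of 6 stem cell marker genes, 4 held a peak in any library, and none of these had a peak in more than 6 libraries, so the lists give no check of cell identity.

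Some of the regions described below are shown first. Each is the 200-base window centred on the median summit, written 5′ to 3′ on the strand of the gene from NCBIM37, the assembly of mm9. Capitals mark bases inside exons of coding transcripts and lower case marks introns. The windows of Hnrnpa2b1 and Hnrnpa1 show how summits fall at exon-intron borders, the next pair lie deep in introns of Hnrnpf and Hnrnpc, and the last is wholly exonic.
Hnrnpa2b1 exons 5 and 6, chr6:51416203-51416402, minus strand: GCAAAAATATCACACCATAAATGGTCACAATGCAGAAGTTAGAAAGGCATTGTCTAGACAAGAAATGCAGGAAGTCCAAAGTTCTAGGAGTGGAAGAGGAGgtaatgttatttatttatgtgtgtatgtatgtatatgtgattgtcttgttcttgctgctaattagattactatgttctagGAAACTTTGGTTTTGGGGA
Hnrnpa1 exon 7 and intron 7, chr15:103073132-103073331, plus strand: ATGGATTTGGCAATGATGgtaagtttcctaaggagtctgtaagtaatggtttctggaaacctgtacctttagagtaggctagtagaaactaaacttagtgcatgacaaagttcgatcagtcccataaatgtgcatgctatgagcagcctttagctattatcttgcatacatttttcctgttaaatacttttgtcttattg
Hnrnpf intron 3, chr6:117869733-117869932, plus strand: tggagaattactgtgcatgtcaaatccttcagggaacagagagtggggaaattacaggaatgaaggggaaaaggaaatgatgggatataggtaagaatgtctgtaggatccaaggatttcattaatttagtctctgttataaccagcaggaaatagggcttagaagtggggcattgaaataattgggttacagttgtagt
Hnrnpc intron 1, chr14:52708606-52708805, minus strand: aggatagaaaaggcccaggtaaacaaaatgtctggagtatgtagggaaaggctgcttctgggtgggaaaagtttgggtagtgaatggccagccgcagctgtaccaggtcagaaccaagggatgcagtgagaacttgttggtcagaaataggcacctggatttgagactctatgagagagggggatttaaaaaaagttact
Hnrnpu exon 1, chr1:180267317-180267516, minus strand: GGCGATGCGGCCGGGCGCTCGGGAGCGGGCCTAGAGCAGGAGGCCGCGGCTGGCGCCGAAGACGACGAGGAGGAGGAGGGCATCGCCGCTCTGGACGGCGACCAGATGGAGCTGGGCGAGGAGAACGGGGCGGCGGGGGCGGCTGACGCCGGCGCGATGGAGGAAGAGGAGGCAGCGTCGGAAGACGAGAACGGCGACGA

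Peaks at hnRNP genes were frequent, and a few regions recurred in nearly all libraries. A peak in all 13 libraries was found in 4 of the 10 genes, which were Hnrnpa2b1, Hnrnpd, Hnrnpf and Hnrnpu. Hnrnpm had peaks in 12 libraries, Hnrnpa1 in 9, Hnrnpc in 8, Hnrnph1 and Hnrnpl in 6 each, and Hnrnpk in 3. At least 1 region was present in all 3 WT ESC libraries in 7 of the 10 genes, against 3.76% of the 22380 coding genes of the annotation. The abundance of the transcripts was not measured here, and its part in this difference was not tested. The members were chosen with earlier results of these data known, so the difference is a description of them only. Among 18 other hnRNP genes and relatives, 5 had a region in all 3 WT ESC libraries, which were Hnrnpa0, Hnrnpa3, Hnrnpul1, Hnrnpul2 and Syncrip. Hnrnpa3, a close relative of Hnrnpa2b1, held 4 of them. Pcbp2 and Rbmx had no peak in any library.

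Of the 68 hnRNP regions, 2 were present in all 13 libraries and 15 in at least 7. The corresponding shares were 2.94% and 22.1%, against 0.276% and 6.72% of all 18820 regions in coding genes. They too describe members chosen with earlier results known. A further 23 regions (33.8%) were present in 1 library, against 54.2% of all regions in coding genes. Hnrnpm held 14 regions, a number reached by 95 coding genes. Hnrnpf held 10, Hnrnph1 9, Hnrnpu 8, Hnrnpa2b1 7, Hnrnpd 6, Hnrnpa1 and Hnrnpc 4 each, and Hnrnpk and Hnrnpl 3 each. In Hnrnph1 6 of 9 regions and in Hnrnpk 2 of 3 were present in 1 library.

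Libraries with long lists mostly held more hnRNP regions. WT ESC had 18, 26 and 21 regions in replicates 1 to 3, TKO ESC 10, 23 and 19, and WT EB 6, 14 and 27. Tet2-KI ESC had 44 and 30 and Tet2deltaRBD-KI ESC 21 and 17. Per 1000 peaks of a list, the mean number at hnRNP genes was 4.65 ± 0.742 in WT ESC, 9.34 ± 5.39 for TKO ESC and 10.8 ± 2.90 for WT EB (SD, n = 3 each), with 6.16 ± 1.08 for Tet2-KI ESC and 5.71 ± 0.452 for Tet2deltaRBD-KI ESC (SD, n = 2 each). Replicate 1 of TKO ESC and of WT EB, with the shortest lists, gave the highest values at 15.6 and 14.1. The longest list, Tet2-KI ESC replicate 1, gave 5.39, above the 4.50 and 4.00 of WT ESC replicates 2 and 3. The lengths of the lists differ between the groups, so group and list length cannot be told apart in these shares.

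**Figure D1:**
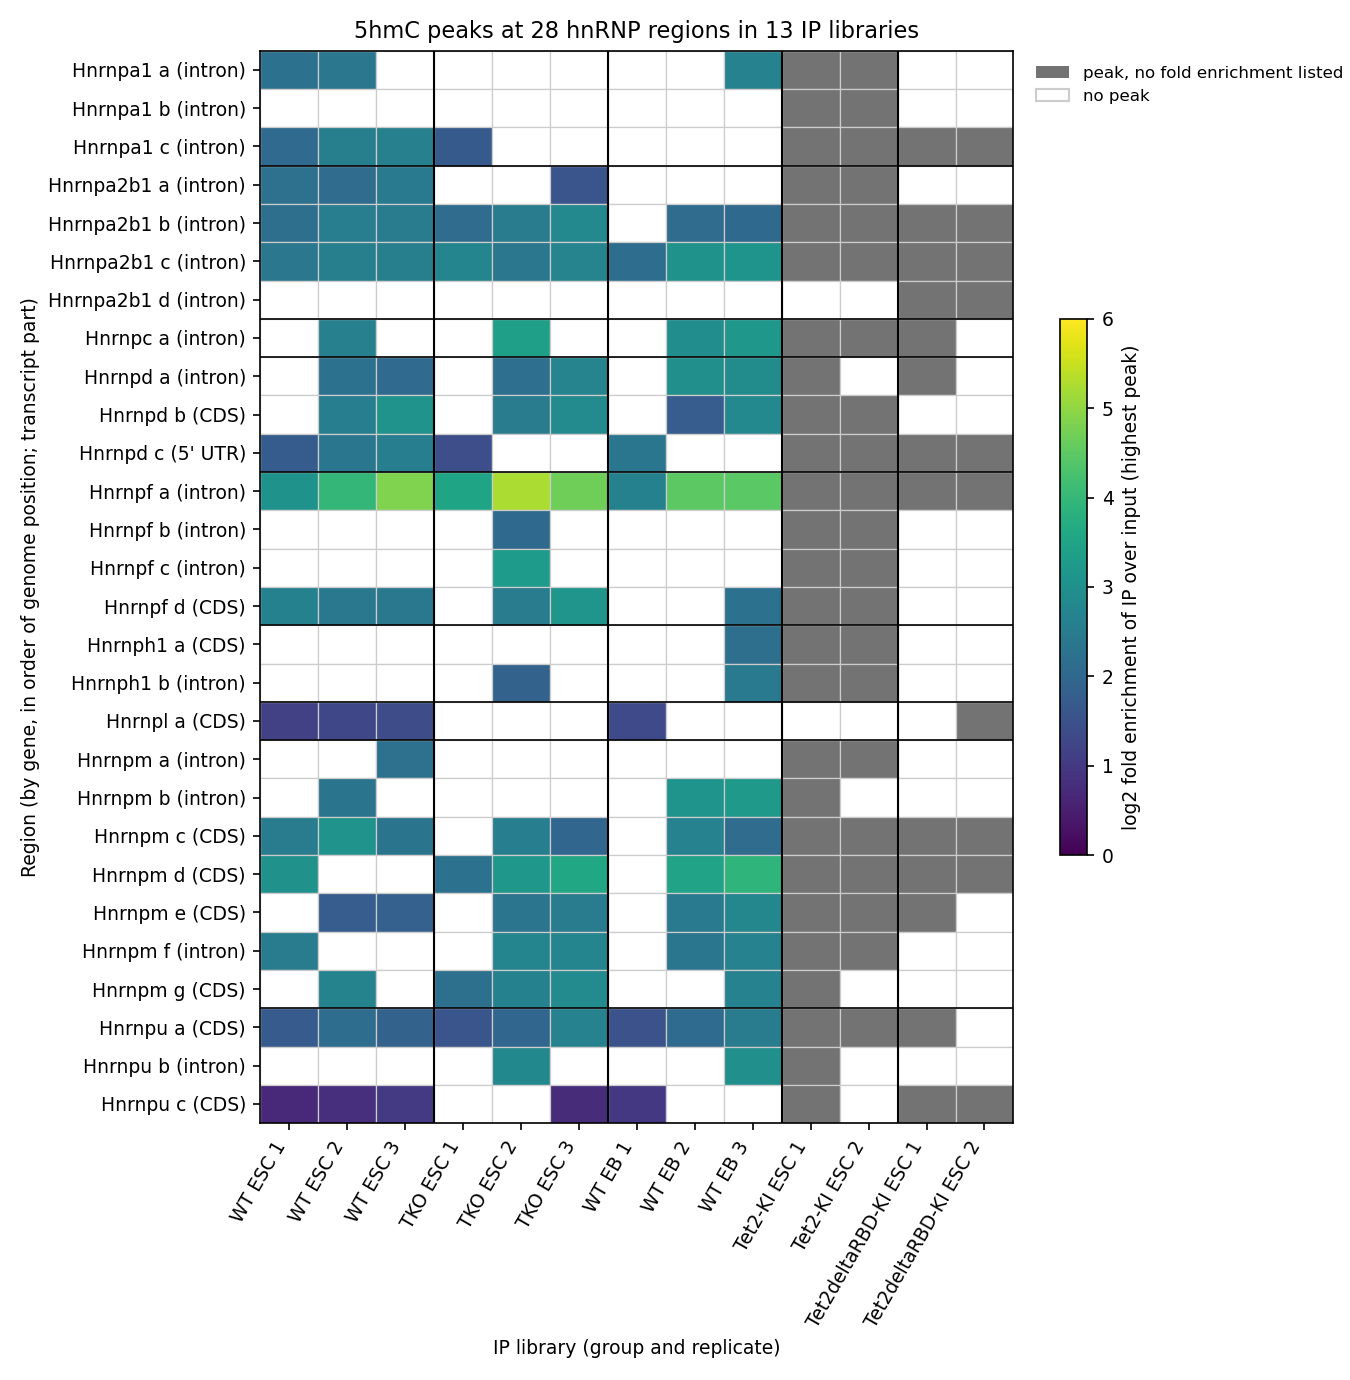
Presence and fold enrichment of the 28 hnRNP regions described one by one (vertical axis, lettered within each gene by genome position, with transcript part) in the 13 IP libraries (horizontal axis). Colour gives the log2 fold enrichment of IP over input of the highest peak, grey a peak in a list without fold enrichment and white no peak. The rows of Hnrnpf a and Hnrnpa2b1 c are filled in all 13 libraries, and Hnrnpf a has the brightest colours.

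A summit was taken as intronic when it lay within the gene span and outside the exons of coding transcripts. By the majority of their summits, 41 of the 68 hnRNP regions were intronic (60.3%), 22 coding (32.4%), 4 in 5' UTRs and 1 in a 3' UTR. The 41 include 2 regions of Hnrnpu that lie past the last exon of its coding transcripts, each present in 1 library. Over all coding genes 69.3% of regions were intronic and 20.7% coding. Of the 340 single peaks, 179 had summits in introns alone (52.6%), 112 in coding exons shared by all overlapping transcripts (32.9%) and 23 in alternative coding exons (6.76%). The 23 lay in Hnrnpm (9), Hnrnpa2b1 (6), Hnrnpl (5) and Hnrnpa1 (3). The intronic hnRNP regions lay close to exons. The distance of a region was taken as the median over its summits to the nearest exon of a coding transcript, with summits in an exon counted as 0. The median over the 41 regions was 46.5 bases, and 28 of 41 (68.3%) lay within 100 bases. At the 18 other hnRNP genes the median was 35 bases and 77.4% of 31 intronic regions lay within 100 bases, so this nearness was not particular to the 10 members. Over all coding genes the median was 1804 bases and 19.3% lay within 100 bases. Of the intron bases of the 10 genes, 13.7% lay within 100 bases of an exon, against 2.88% in all coding genes with an intronic region. In both sets the share of regions near exons was above the share of intron bases.

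The position differed between members. All 6 intronic regions of Hnrnpm and all 4 of Hnrnpd lay within 100 bases of an exon, where 7.90% and 9.42% of the intron bases of these genes lie. The 4 of Hnrnpa1 did so too, but 64.1% of its intron bases are that near. In Hnrnpf it was 2 of 6, in Hnrnpu 2 of 4 and in Hnrnpk none of 2. The 200-base windows held both exon and intron bases in 47 of 68 regions, exon bases alone in 7 and no exon base in 14. The window is centred on the median summit and can miss the summits of a wide region. That of Hnrnpu chr1:180260240-180261009, a coding region with 21 of 25 summits in exons, held no exon base, and its intron bases enter the composition and motif counts that follow. By the median summit, 14 intronic regions lay within 100 bases of an acceptor site, 10 within 100 bases of a donor site and 4 inside an exon.

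**Figure D2:**
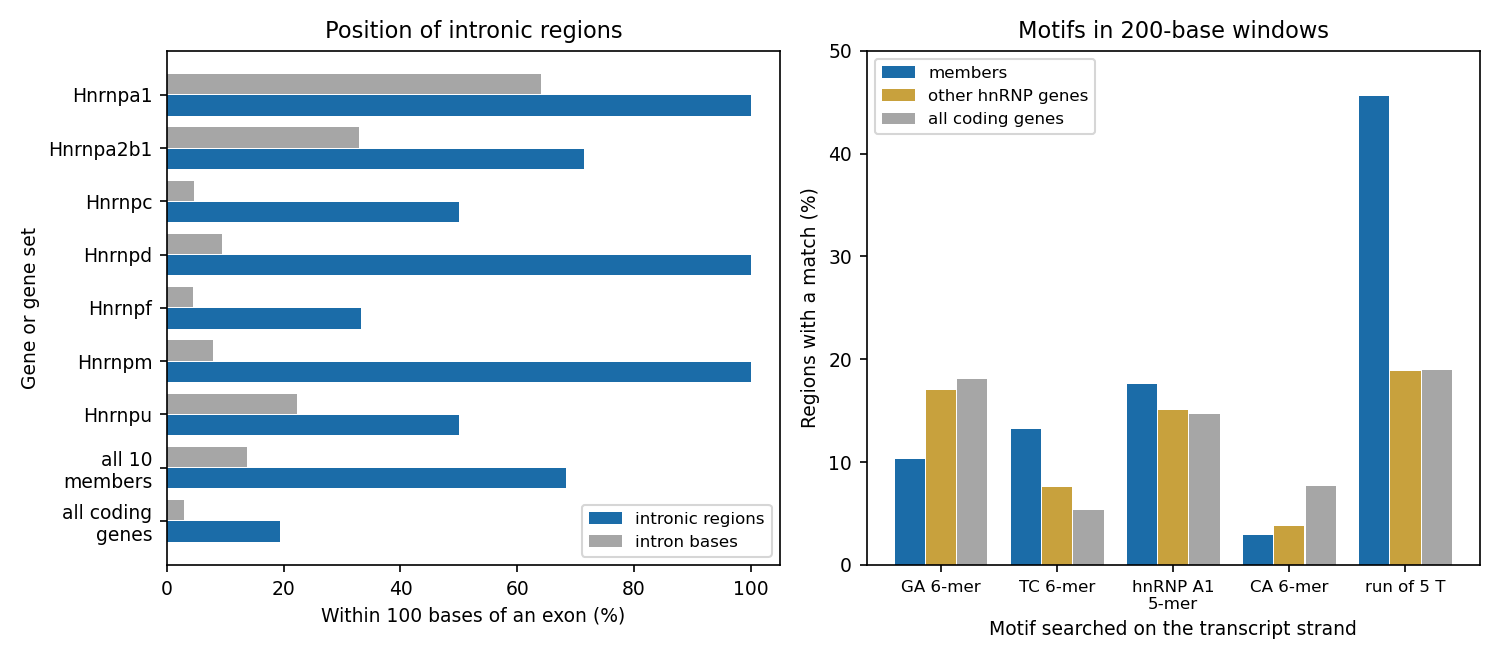
Left, percentage of intronic regions (blue) and of intron bases (grey) within 100 bases of an exon, for members with at least 4 intronic regions and for the gene sets. Right, percentage of regions whose 200-base window held each motif on the transcript strand, for the 10 members (blue), 18 other hnRNP genes (yellow) and all coding genes (grey). The run of 5 T was found in 45.6% of hnRNP windows and 19.0% of all windows.

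Windows of hnRNP regions were richer in T than windows at large. A region lying in several coding genes was counted once per gene, which gave 19450 windows over all coding genes. The median T content was 27.5% against 23.0% over all coding genes, the median GC content 41.5% against 47.5%, and the median share of pyrimidines 45.8% against 42.5%. The 18 other hnRNP genes lay between, at 26% T, 44.5% GC and 43.0% pyrimidines. A run of 5 T (TTTTT) on the transcript strand was found in 31 of 68 windows (45.6%), against 19.0% of all windows in coding genes and 18.9% at the 18 other hnRNP genes. For intronic regions within 100 bases of an exon, a stretch that takes in polypyrimidine tracts of acceptor sites, the share was 50.0% of 28 hnRNP windows and 35.5% of all windows. For intronic regions beyond 100 bases it was 46.2% of 13 hnRNP windows and 16.2% of all. For coding regions it was 45.5% of 22 and 16.9%. Counts are of windows with at least 1 match, overlapping matches included. The complement, a run of 5 A, was present in 33.8% of hnRNP windows and 24.5% of all.

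Further motifs were searched on both strands. TAGGG, the core of the hnRNP A1 binding motif, was present in 17.6% of hnRNP windows and 14.7% of all, with its complement in 11.8% and 7.16%. It occurs in the Hnrnpf intron 3 and Hnrnpc intron 1 windows printed above. TTCTTC was found in 13.2% against 5.30%, and its complement GAAGAA in 10.3% against 18.1%. CACACA, of the kind bound by hnRNP L, was found in 2.94% against 7.66%, and its complement in 11.8% against 14.4%. These shares rest on few windows, 12 for TAGGG, 9 for TTCTTC, 7 for GAAGAA and 2 for CACACA.

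Hnrnpf encodes an RNA-binding protein that recognizes G-rich sequences next to splice sites. The gene lies at chr6:117850358-117875639 on the plus strand. Its intron 3 held the region with the highest fold enrichment of the family, chr6:117869724-117869967, which was present in all 13 libraries. It lies 656 bases downstream of the preceding exon in an intron of 4548 bases, and all 13 of its summits were intronic. Fold enrichment was 8.16, 15.8 and 28.4 in WT ESC, 11.4, 37.9 and 25.6 in TKO ESC, and 6.07, 22.6 and 22.0 in WT EB. The lowest value of each group was that of replicate 1, and the groups overlapped. The means were 17.5 ± 10.2, 25.0 ± 13.3 and 16.9 ± 9.36 (SD, n = 3 each). The difference on the log2 scale was -0.53 (SE 0.54) for WT ESC minus TKO ESC and 0.094 (SE 0.58) for WT ESC minus WT EB, with limma adjusted p = 0.913 and 0.955, so neither was larger than the spread between replicates. The difference from TKO ESC ran from -1.01 without TKO ESC replicate 1 to -0.073 without WT ESC replicate 1. The difference from WT EB turned negative, at -0.53 without WT EB replicate 1 and -0.35 without WT ESC replicate 3.

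In the same intron, the neighbouring regions chr6:117871481-117871715 and chr6:117871719-117871923, were present in both Tet2-KI ESC libraries, in TKO ESC replicate 2 and in no Tet2deltaRBD-KI ESC library, with fold enrichments of 4.06 and 9.66 in TKO ESC. The coding region chr6:117873893-117874230 was present in 8 libraries, with fold enrichments of 6.10, 5.31 and 5.25 in WT ESC, 5.56 and 8.77 in TKO ESC replicates 2 and 3, and 4.69 in WT EB replicate 3. Its window matched 7 other places in the genome at 95% identity or more over at least 100 bases, so its reads may be shared with near-identical copies. A region in the 5' part of Hnrnpf, chr6:117857147-117857597, was present in all 4 knock-in libraries and in no other, and overlaps the gene 4933440N22Rik on the opposite strand. Strand was not stated for these libraries, and the 2 genes cannot be told apart there.

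Hnrnpa2b1 and Hnrnpa1 encode closely related proteins that bind UAG-containing sequences and promote exon skipping. Hnrnpa2b1 lies at chr6:51410433-51419893 on the minus strand and Hnrnpa1 at chr15:103070945-103074445 on the plus strand. In Hnrnpa2b1 the region chr6:51415981-51416624 was present in all 13 libraries and ran from exon 4 to intron 6. Its 29 summits fell in intron 4 (8), intron 5 (7), intron 6 (5) and exons 4 (5), 5 (3) and 6 (1), of which introns 4 and 5 are 90 and 80 bases long. Fold enrichment was 5.22, 5.95 and 5.92 in WT ESC, 6.60, 5.16 and 6.55 in TKO ESC, and 4.36, 8.25 and 8.59 in WT EB. The groups overlapped, with WT EB the most spread. The log2 difference was -0.094 (SE 0.41) for WT ESC minus TKO ESC and -0.25 (SE 0.42) for WT ESC minus WT EB (limma adjusted p = 0.961 and 0.867). Against TKO ESC it ran from -0.21 without TKO ESC replicate 2 to -0.032 without WT ESC replicate 1, and against WT EB from -0.57 without WT EB replicate 1 to -0.078 without WT EB replicate 3.

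The neighbouring Hnrnpa2b1 region chr6:51414095-51414668 was present in 12 libraries, all but WT EB replicate 1. It covers exon 8, of 120 bases, which is present in 2 of the 3 coding transcripts and thus alternative. Of 22 summits, 13 lay in intron 8, 6 in exon 8 in 6 libraries, 2 in intron 7 and 1 in exon 9. Fold enrichment was 4.49, 5.70 and 5.57 in WT ESC, 4.27, 5.65 and 7.08 in TKO ESC, and 4.27 and 4.05 in the 2 WT EB libraries with a peak, both below the WT ESC values. WT ESC minus TKO ESC was -0.087 on the log2 scale (SE 0.42, limma adjusted p = 0.970), and ran from -0.28 without TKO ESC replicate 1 to 0.089 without TKO ESC replicate 3.

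Another Hnrnpa2b1 region, chr6:51413141-51413617 around exon 10, was present in all 3 WT ESC libraries, in TKO ESC replicate 3 and in both Tet2-KI ESC libraries, and in no WT EB or Tet2deltaRBD-KI ESC library. Its fold enrichments were 4.65, 4.27 and 5.49 in WT ESC and 3.00 in TKO ESC. By comparison, chr6:51419296-51419605 in the long intron near the start of the gene was present in both Tet2deltaRBD-KI ESC libraries and in no other. All 7 Hnrnpa2b1 regions were intronic by the majority of summits.

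Hnrnpa1 regions clustered in the 3' part of the gene, over short introns. The region chr15:103073111-103073509 was present in all 3 WT ESC libraries, with fold enrichments of 4.13, 5.95 and 6.01, in TKO ESC replicate 1 at 3.20, in all 4 knock-in libraries and in no WT EB library. Of its 11 summits, 8 lay in intron 7, of 203 bases, and 3 in exon 8, whose forms of 159 and 163 bases are each carried by 1 of 3 coding transcripts. The region chr15:103072463-103072681 had all 5 summits in intron 4, of 92 bases. It was present in WT ESC replicates 1 and 2 (4.80 and 5.17), WT EB replicate 3 (6.18) and both Tet2-KI ESC libraries. The adjacent chr15:103072686-103073066 was present in the 2 Tet2-KI ESC libraries only.

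**Figure D3:**
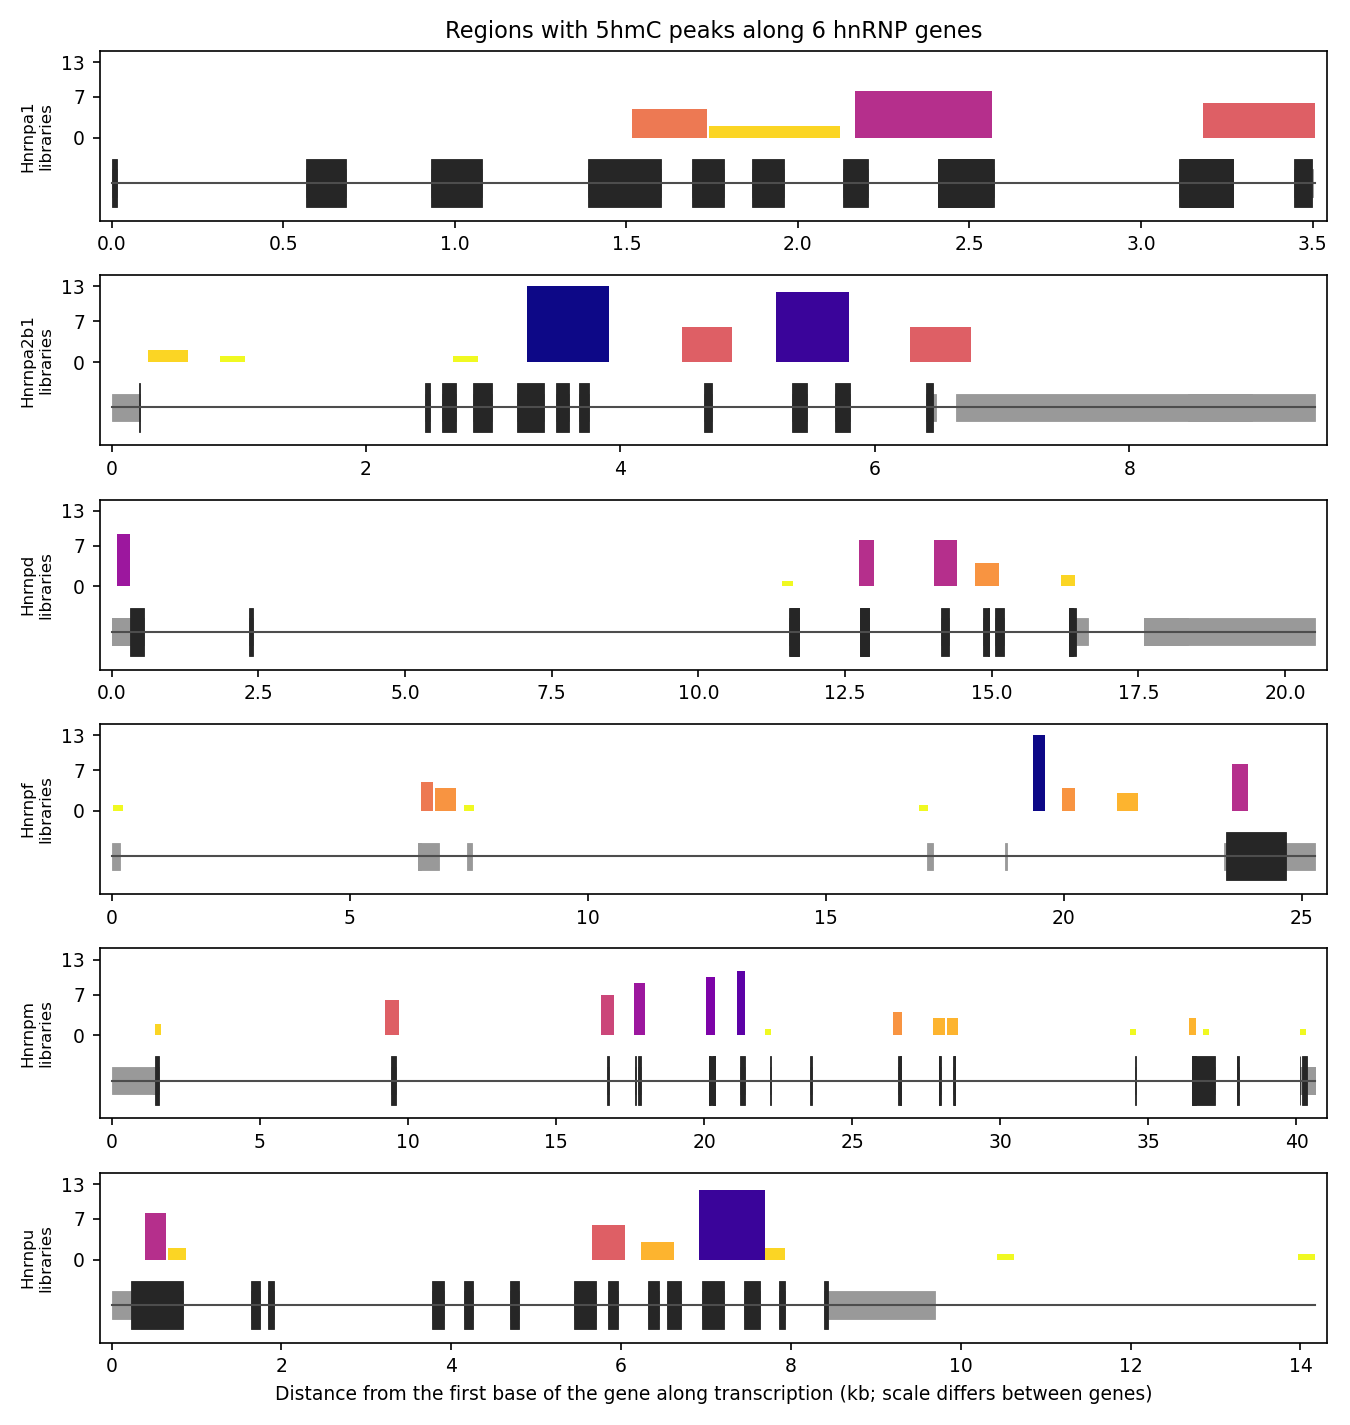
Regions (coloured bars, height and colour giving the number of libraries with a peak, out of 13) above the exons of coding transcripts (grey, coding parts black) along 6 hnRNP genes, drawn from the first base of each gene in the direction of transcription (kb, scale differing between genes). In Hnrnpa1, Hnrnpa2b1 and Hnrnpm the tall bars stand over short exons and the introns beside them. In Hnrnpf the bar of 13 libraries stands over an intron, away from exons.

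Hnrnpm, at chr17:33783178-33823805 on the minus strand, encodes a protein that binds GU-rich sequences. All 14 of its regions lay in exons or within 64 bases of one. The region chr17:33802417-33802707 at exon 8 was present in 11 libraries, missing only in replicate 1 of TKO ESC and of WT EB, with 9 of 11 summits in the exon. Fold enrichment was 5.64, 8.45 and 4.98 in WT ESC, 5.79 and 3.93 in TKO ESC and 6.29 and 4.26 in WT EB, and the groups overlapped.

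The Hnrnpm region chr17:33803421-33803753 covers an annotated choice of splicing. There 2 of 5 coding transcripts have 1 exon of 192 bases, whereas 3 splice out an inner stretch and keep a first piece of 39 bases. In the transcript Hnrnpm-002 the inner stretch is 117 bases and the second piece 36 bases. A longer form of the second piece is also annotated, for which less is spliced out. Of the 10 summits of the region, 9 lay in the exon of 192 bases and 5 of these in the stretch of 117 bases. The region was present in all 3 TKO ESC libraries (4.69, 9.12 and 11.9), WT ESC replicate 1 (8.05), WT EB replicates 2 and 3 (11.2 and 14.9) and all 4 knock-in libraries. Its mean fold enrichment of 9.97 ± 3.51 (SD, n = 6 libraries) was the highest of Hnrnpm.

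Further towards the start of Hnrnpm, chr17:33805809-33806157 at exon 5 was present in 9 libraries. Fold enrichment was 3.35 and 3.59 in WT ESC, 5.05 and 5.56 in TKO ESC and 5.45 and 6.90 in WT EB. The 2 WT ESC values were below the other 4, all in replicates 2 and 3. The region entered the limma fits over regions with a peak in at least 2 libraries of each group, and no region was called there at an adjusted p under 0.05, of 1179 tested against TKO ESC and 730 against WT EB, with 121 and 141 at an unadjusted p under 0.05. Exons 3 and 2 carried chr17:33806857-33807281 (7 libraries) and chr17:33814118-33814562 (6 libraries). The latter was present in all 3 TKO ESC libraries (4.58, 6.11 and 7.16), WT ESC replicate 2 (6.43), WT EB replicate 3 (6.30) and Tet2-KI ESC replicate 1. Of the summits in introns of coding transcripts, 5 lay in exons of transcripts annotated as retained introns, all of them in Hnrnpm and 4 in the region at exon 5. Hnrnpl, Hnrnpu and Hnrnpd have 22, 7 and 2 such exons, against 6 in Hnrnpm, and 0 of their intronic summits lay in them. Exon 11 carried chr17:33797120-33797408, at 8.58 and 9.30 in WT EB and 4.99 in WT ESC replicate 2, with a peak in Tet2-KI ESC replicate 1. Exon 12 carried chr17:33795656-33796086, in both Tet2-KI ESC libraries and WT ESC replicate 3.

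Hnrnpu, at chr1:180253205-180267928 on the minus strand, encodes a nuclear matrix protein that binds RNA and DNA. Its region chr1:180260240-180261009 spans exons 11 and 12 and was present in all 9 libraries with fold enrichment and in 3 knock-in libraries. Of 25 summits, 11 lay in exon 11, 10 in exon 12 and 4 in the intron between them. Fold enrichment was 3.23, 4.37 and 3.70 in WT ESC, 2.96, 3.93 and 6.23 in TKO ESC and 2.85, 4.24 and 5.60 in WT EB, in overlapping ranges. The log2 difference was -0.16 (SE 0.44) for WT ESC minus TKO ESC and -0.13 (SE 0.42) for WT ESC minus WT EB (limma adjusted p = 0.950 and 0.896). With 1 library left out these ran from -0.41 without TKO ESC replicate 1 to 0.13 without TKO ESC replicate 3, and from -0.38 without WT EB replicate 1 to 0.10 without WT EB replicate 3. Another region, chr1:180261304-180261698 at exons 9 and 10, reached 6.98 in TKO ESC replicate 2 and 7.99 in WT EB replicate 3, with a peak in Tet2-KI ESC replicate 1.

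**Figure D4:**
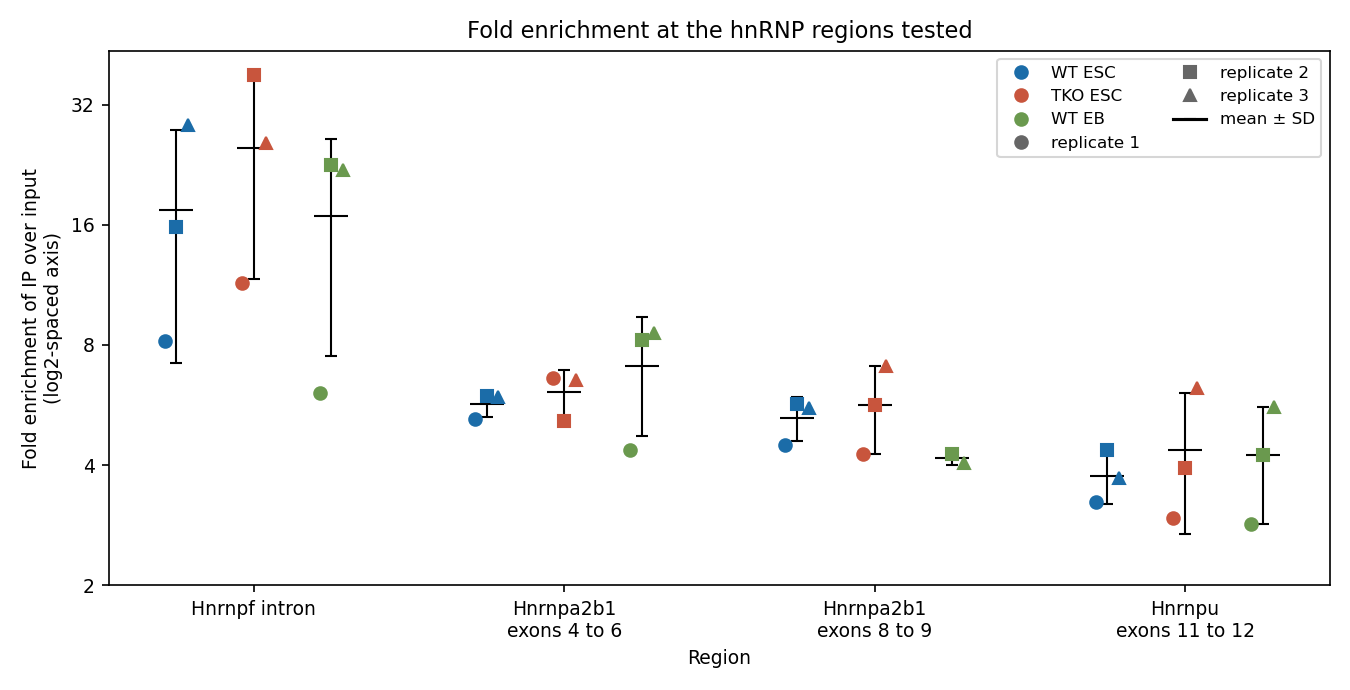
Fold enrichment of IP over input (vertical axis, log2-spaced) at the 4 hnRNP regions tested, by group (colour) and replicate (symbol), with the mean and SD of each group in black. The Hnrnpf intron region lies above the other 3 in all 9 libraries, and WT ESC and TKO ESC overlap in each region.

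A few regions at the start of genes had GC-rich windows, and those of Hnrnpu and Hnrnpl had low fold enrichment. Hnrnpu exon 1, chr1:180267290-180267540, was present in all 3 WT ESC libraries at 1.59, 1.75 and 1.98, in TKO ESC replicate 3 (1.68), WT EB replicate 1 (1.96), 1 Tet2-KI ESC and both Tet2deltaRBD-KI ESC libraries. Hnrnpl, at chr7:29593560-29607285 on the plus strand, encodes a protein that binds CA repeats and had its main region in the coding exon 2, chr7:29595983-29596248, an exon annotated with alternative starts. It was present in all 3 WT ESC libraries at 2.23, 2.43 and 2.60, in WT EB replicate 1 (2.54), in Tet2deltaRBD-KI ESC replicate 2 and in no TKO ESC library.

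Hnrnpd (chr5:100387445-100407957, minus strand), which encodes an AU-rich element binding protein also known as AUF1, had a region in the 5' UTR of exon 1, chr5:100407641-100407868, at 3.31, 5.16 and 5.87 in WT ESC, 2.66 in TKO ESC replicate 1 and 5.15 in WT EB replicate 1, and in all 4 knock-in libraries. It overlaps the gene Gm17092 on the opposite strand. The windows of these 3 regions, Hnrnpu exon 1, Hnrnpl exon 2 and Hnrnpd exon 1, were 74.0 to 74.5% GC. Of all hnRNP windows 9 (13.2%) had at least 70% GC, against 10.2% of all windows in coding genes, and 6 of these 9 had a listed fold enrichment, with means from 1.65 to 4.83.

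Elsewhere Hnrnpd peaks lay at inner exons. The coding region chr5:100394964-100395211, with all 8 summits in exon 4, was present in replicates 2 and 3 of WT ESC (5.84 and 8.50), TKO ESC (5.53 and 7.16) and WT EB (3.34 and 7.12) and in both Tet2-KI ESC libraries, but in no Tet2deltaRBD-KI ESC library. The region around exon 5, chr5:100393554-100393941, was present in the same 6 libraries at 4.83 and 4.18 in WT ESC, 4.45 and 6.56 in TKO ESC and 7.94 and 7.49 in WT EB, and in 1 library of each knock-in line. At exon 5 both WT EB values were above the other 4, and at exon 4 the groups overlapped. Neither region was called in the limma fits over regions with a peak in at least 2 libraries of each group, where no region was.

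Hnrnpc (chr14:52693055-52723703, minus strand) encodes a protein that binds U-rich RNA. Its main region, chr14:52708552-52708894, lay 4615 bases from the nearest exon in intron 1, of 19472 bases. It was present in 7 libraries, at 6.07 in WT ESC replicate 2, 10.2 in TKO ESC replicate 2 and 7.51 and 9.04 in WT EB replicates 2 and 3. Hnrnph1 (chr11:50190492-50200030, plus strand), related to Hnrnpf, had 2 regions in both Tet2-KI ESC libraries and no Tet2deltaRBD-KI ESC library, chr11:50195959-50196209 in exon 7 and chr11:50196280-50196521 in intron 8, of 56 bases. Both were also present in WT EB replicate 3, at 4.52 and 5.44, and the intron 8 region in TKO ESC replicate 2 at 3.69. Hnrnpk (chr13:58492503-58504704, minus strand), which encodes a KH-domain protein that binds C-rich RNA, held 3 regions with peaks in the knock-in libraries alone. One of them, in the 3' UTR, matched 2 other places in the genome. The 40 regions not described one by one were present in 1 to 6 libraries, 24 of them intronic and 23 in 1 library, and the 26 with a listed fold enrichment had means from 1.65 to 7.90.

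The comparison of WT ESC with TKO ESC asks which regions depend on Tet enzymes. Of 11 hnRNP regions present in all 3 WT ESC libraries, 1 was without a peak in TKO ESC, the Hnrnpl exon 2 region. That is 9.09%, against 26.4% of the 1086 such regions over all coding genes. In the other direction, 6 hnRNP regions were present in all 3 TKO ESC libraries and none of them lacked a peak in WT ESC, against 1.67% of 300 regions over all coding genes. The TKO ESC lists were shorter, and genotype and list length cannot be told apart here. The count of 1 became 4 without WT ESC replicate 3, and 3 without TKO ESC replicate 1 or 3, and the count of 0 became 1 without WT ESC replicate 1 or 2. In the 2 libraries per group of the 1703 batch the counts were 3 and 2.

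The comparison with WT EB follows the cells as they leave the stem cell state. Of the 11 hnRNP regions present in all WT ESC libraries, 2 had no peak in WT EB (18.2%), which were Hnrnpa1 chr15:103073111-103073509 and Hnrnpa2b1 chr6:51413141-51413617, against 47.5% over all coding genes. None of the 3 hnRNP regions present in all WT EB libraries lacked a WT ESC peak, against 2.91% of such regions over all coding genes. The count of 2 became 4 without WT ESC replicate 3 and 5 without WT EB replicate 1. In the 1703 batch the counts were 6 and 2. Comparisons with TKO ESC and WT EB share the WT ESC libraries.

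Fold enrichment was tested with limma over all regions with a peak in all 6 libraries. No region was called at an adjusted p under 0.05 in either comparison (0% of 283 regions for TKO ESC and 0% of 94 for WT EB), with 10 and 13 regions at an unadjusted p under 0.05. The 4 and 3 hnRNP regions among those tested, with the values given above, were not called. The median log2 difference over all regions tested was 0.054 for WT ESC minus TKO ESC and 0.30 for WT ESC minus WT EB. Centring each library on its median removed this shift and took the Hnrnpf difference from WT EB to -0.22. With WT ESC replicate 1 left out, 1 region was called against WT EB. With same-numbered replicates taken as blocks, 7 of the 94 regions were called against WT EB, none of them an hnRNP region. In each of the 9 libraries the median fold enrichment of hnRNP peaks was below that of all peaks in coding genes, at 4.77 ± 0.312 against 5.91 ± 0.283 in WT ESC, 5.41 ± 1.02 against 6.70 ± 0.604 for TKO ESC and 5.04 ± 1.48 against 6.64 ± 1.06 for WT EB (SD, n = 3 each).

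The comparison of the knock-in lines asks which regions depend on the RNA-binding domain of Tet2. Of 26 hnRNP regions present in both Tet2-KI ESC libraries, 11 had no peak in Tet2deltaRBD-KI ESC (42.3%), against 35.2% of the 2696 such regions over all coding genes. They lay in Hnrnpf (3), Hnrnpa1 (2), Hnrnpm (2), Hnrnph1 (2), Hnrnpa2b1 (1) and Hnrnpd (1), and 8 of them were intronic. Of these 11, the 3 of Hnrnpf, those of Hnrnpd and Hnrnpa2b1, Hnrnph1 chr11:50196280-50196521 and Hnrnpm chr17:33806857-33807281 also had a peak in TKO ESC, which lack Tet2. The 2 of Hnrnpa1, Hnrnph1 chr11:50195959-50196209 and Hnrnpm chr17:33795656-33796086 had none there. In the other direction, 1 of 11 regions present in both Tet2deltaRBD-KI ESC libraries had no peak in Tet2-KI ESC (9.09%), against 16.1% of 1238. Without Tet2-KI ESC replicate 2 the count of 11 became 23, and without Tet2deltaRBD-KI ESC replicate 1 it became 17. The count of 1 became 5 without Tet2deltaRBD-KI ESC replicate 1, and 2 without its replicate 2 or without Tet2-KI ESC replicate 1. The Tet2-KI ESC lists were longer, at 10383 and 5781 peaks against 4639 and 3318, and line and list length cannot be told apart.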

How the data were processed

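The 13 IP peak lists were analysed, and the 13 input libraries were not used here. The authors filtered reads with AfterQC, removed rRNA and tRNA with Bowtie2, trimmed with Trimmomatic, aligned with STAR to mm9 and called peaks with MACS2 for each IP against its own input at q under 0.05, with summits. The deposited intervals span 200 bases around a summit, and the deposited ratio is fold enrichment at the summit, without counts.

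Intervals overlapping by at least 1 bp over all libraries were merged (Python 3.11.15, pandas 2.3.3). Regions were described one by one when present in at least 7 libraries, in all replicates of WT ESC, TKO ESC or WT EB, in both libraries of 1 knock-in line and neither of the other, or among the 5 highest in mean fold enrichment over at least 2 libraries. Members and lists were chosen with earlier results of these data known. Log2 fold enrichment was tested with limma 3.58.1 (R 4.3.3) without a block, and the script was tested on simulated data. Same-numbered WT ESC and TKO ESC libraries deviated together (r = 0.33, 0.13 and 0.12 over 283 regions), which met the criterion for pairs. The highest value of a differently numbered pair was r = 0.16, for WT ESC replicate 3 and TKO ESC replicate 2. The values printed are those of the fit without the block, and the block changed no call against TKO ESC. Windows were matched to the genome with blastn 2.17.0. No 2 lists shared more than 1.97% of identical intervals.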

Additional observations from a re-analysis of the deposited data

How the results depend on the processing

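Depth and RNA abundance were not measured, and the lists differed in length. Taking only peaks of fold enrichment 5 or more, lists shortened to the shortest, presence in at least 2 of 3 replicates and the 1703 batch only gave 0, 0, 4 and 3 hnRNP regions present in WT ESC and not in TKO ESC, and 1, 0, 6 and 6 not in WT EB. The 1703 batch gave 2 in each opposite direction. An overlap of at least 100 bp gave 0 regions present in Tet2deltaRBD-KI ESC and not in Tet2-KI ESC. Leaving out 1 replicate gave ranges of 1 to 4 (WT ESC not TKO ESC), 0 to 1 (the reverse), 2 to 5 (WT ESC not WT EB), 11 to 23 (Tet2-KI ESC not Tet2deltaRBD-KI ESC) and 1 to 5 (the reverse). The cause of these changes was not tested.

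With limma, leaving out 1 replicate gave 0 called regions against TKO ESC and 0 to 1 against WT EB. The replicate block gave 7 of 94 regions called against WT EB, none of them an hnRNP region, and 0 against TKO ESC. The WT ESC and WT EB numbers did not pair the samples (r = 0.29, 0.15 and -0.02). Leaving out 1 replicate turned the sign of the log2 difference at Hnrnpu (-0.41 to 0.13 against TKO ESC, -0.38 to 0.10 against WT EB), Hnrnpa2b1 exons 8 and 9 (-0.28 to 0.089 against TKO ESC, 0.022 without WT ESC replicate 1) and Hnrnpf (-0.53 to 0.55 against WT EB, -0.35 without WT ESC replicate 3). At Hnrnpf against WT EB the value was -0.22 with libraries centred and -0.072 in the 1703 batch, and at Hnrnpa2b1 exons 4 to 6 against TKO ESC 0.029 in that batch. The fit within the 1703 batch was added after seeing the data. No other sign changed.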
